A study of Mus musculus with 18 samples.

Results

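Liver RNA was compared between young mice that ended an insulin clamp with more and with less glycogen in the liver. The labels give a liver glycogen value for each mouse, and mice with 40 or more label units formed the high-glycogen group (M1, M10, M11 and M12) while mice under 40 formed the low-glycogen group (M2, M3, M4 and M13). These are 8 of the 18 libraries of the series, 1 per mouse and 4 against 4, and the other 10 come from old mice. All 10 old mice share a single labelled age, above that of the young mice. Sex, strain and fasting are described here for the 8 young mice only. All 8 were male C57BL/6J mice, an inbred laboratory strain, 6.18 months old per the labels, with a venous catheter and an overnight fast before the clamp. All 8 share a single day of birth and a single day of sacrifice in the labels, so neither separates the groups. Each liver was taken after insulin had been infused with glucose to hold blood glucose level, and every group received insulin, so no liver without insulin infusion was compared. The highest value below the threshold was 39.6 in M13, followed by 38.7 in M2, and the lowest value above it was 41.2 in M11. The unit of glycogen is not stated in the labels. RNA was extracted with the AllPrep kit in M1, M10 and M13 and with the RNeasy kit in the other 5 mice, so AllPrep holds 2 high-glycogen mice and 1 low-glycogen mouse, and RNeasy holds 2 and 3.

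Glycogen is the branched glucose polymer in which the liver stores carbohydrate after feeding. Glycogen synthase and branching enzyme build it, glycogen phosphorylase releases glucose from it, and insulin shifts the balance towards storage, in part through phosphatase 1 that is brought to the granule by targeting subunits. Most of this control acts on the proteins, so that transcript levels and glycogen content need not move together.

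Reads recovered from the deposited values came to 98314382 to 124801112 per library in the high-glycogen livers and to 85790735 to 127487820 in the low-glycogen livers. The hepatocyte markers made up a summed level of 131045 to 190404 scaled TPM (TPM, a read share corrected for gene length, after a further correction for composition) in the high-glycogen livers and 138346 to 195874 in the low-glycogen livers, and 0 of the 14 markers were at 0. The first principal component of the 8 libraries, with 41.0% of the variance, followed the kit: 3 AllPrep libraries lay between -33.3 and -7.5 and 5 RNeasy libraries between 3.1 and 22.5. M1 stood apart on the second, with 21.8% of the variance, at -29.3 against -6.6 to 23.1 for the other 7. Results that rest on M1 are therefore given with and without it.

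The groups differed by 13.9 label units of glycogen, which is how they were formed, and overlapped in every other labelled trait. Glycogen was 50.4, 50.6, 41.2 and 43.5 in M1, M10, M11 and M12, and 38.7, 23.2, 28.5 and 39.6 in M2, M3, M4 and M13. The high-glycogen mice and the low-glycogen mice are listed in this order throughout. Of 19 other labelled traits, 0 reached an exact two-sided permutation p under 0.05, and 4 against 4 mice cannot give less than 0.0286. Body fat, food intake, respiratory exchange ratio and oxygen use had no record for M13. Their tests of 4 against 3 mice could not reach a p under 0.05 whatever the values. The closest was the labelled glycerol value at the clamp, a tracer measure related to fat breakdown, at 35.1, 23.6, 20.4 and 28.0 in the high-glycogen mice and 20.6, 18.9, 14.4 and 19.5 in the low-glycogen mice. M11 lay just inside the range of the low-glycogen mice and the other 3 lay above it. The means were 26.8 ± 6.37 and 18.4 ± 2.73 label units (SD, n = 4 each; exact permutation p = 0.0571, adjusted over the 19 traits 0.543).

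Suppression of glycerol by insulin is the percent fall from the basal to the clamp value, so it is not independent of the clamp value. It had a lower mean in the high-glycogen mice, at 44.6, 59.9, 51.8 and 53.0%. In the low-glycogen mice it was 58.9, 74.1, 78.0 and 62.0%. The ranges touched between M10 and M2 only, and the means were 52.3% ± 6.27 and 68.3% ± 9.23 (SD, n = 4 each; exact permutation p = 0.0571, adjusted 0.543). Glucose production at the clamp, the glucose that the liver still releases under insulin, was 1.54, 2.51, 3.92 and 1.26 label units in the high-glycogen mice and 3.36, 4.42, 3.76 and 2.54 in the low-glycogen mice. M11 had a value within the low-glycogen range and the other 3 lay below it (exact permutation p = 0.171, adjusted 0.814). Clamp insulin (ratio of means 1.02), the glucose infusion rate (1.02) and clamp weight (0.969) were close between the groups. M1 had the lowest food intake in the metabolic cage, 3.09 kcal per lean mass in label units against 6.40 to 13.8 in the other 6 mice with a record, and the lowest respiratory exchange ratio, 0.774 against 0.820 to 0.902.

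**Figure D1:**
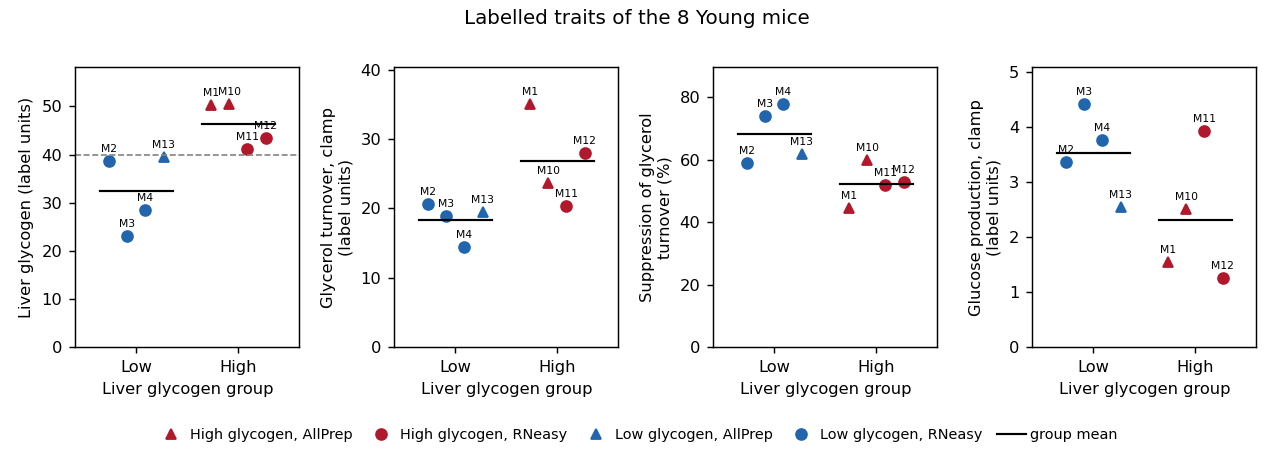
Plot of 4 labelled traits of the 8 young mice, with 1 symbol per mouse (triangles AllPrep, circles RNeasy, red high glycogen, blue low glycogen), black lines at group means and a dashed line at the glycogen threshold of 40. Glycogen is separated by construction, glycerol at the clamp runs from 20.4 to 35.1 in the high-glycogen mice against 14.4 to 20.6, and clamp glucose production overlaps through M11.

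Across 13748 genes no transcript passed limma's adjusted p of 0.05 in either direction (0% of genes higher and 0% lower), and the lowest adjusted p was 0.205. At an unadjusted p under 0.05, 460 genes were higher in the high-glycogen livers (3.35% of all tested) and 719 lower (5.23%). With limma-voom on the recovered reads 0 genes were called, and 461 and 644 had an unadjusted p under 0.05. Groups did not overlap within either kit for 569 genes higher (4.14%) and 1098 lower (7.99%) in high-glycogen livers, and did not overlap at all for 202 higher (1.47%) and 235 lower (1.71%). These shares are the background for every list count given here, and the median log2 difference over all genes was -0.02, with 56.9% of all differences negative. The genes described next were thus not called with all 8 mice, and their values are given as they were measured.

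Genes of glycogen synthesis went in both directions, and no member was called. Of 16 tested genes of glycogen synthesis and its control, 2 were higher and 3 lower at an unadjusted p under 0.05. These made up 31.25% of the list, against 8.58% of all genes in both directions together. Of the 16 differences 12 were negative, with a median log2 difference of -0.17. With each mouse left out the median ran from -0.21 to -0.07 and the lower count from 1 (without M13) to 5 (without M1). Gys2, the glycogen synthase of liver, was at 159, 179, 166 and 143 scaled TPM in the high-glycogen livers and 137, 139, 142 and 154 in the low-glycogen livers. Within each kit every high-glycogen liver lay above the low-glycogen livers, but only just. In RNeasy M12 was at 142.6 and M4 at 142.2, and in AllPrep M1 was at 158.8 and M13 at 154.4. The log2 difference between the groups was 0.14 ± 0.08 (SE; limma adjusted p = 0.682). Gbe1, the branching enzyme, went the other way at 94.0, 78.5, 75.2 and 65.5 against 76.8, 79.9, 94.3 and 102 scaled TPM, a log2 difference of -0.24 ± 0.10 (SE, limma adjusted p = 0.551). Its groups overlapped across kits and did not overlap within either kit. Ugp2, which makes the UDP-glucose that the synthase uses, was at 254, 203, 181 and 127 against 194, 231, 213 and 179 scaled TPM, with M1 highest and M12 lowest of all (log2 difference -0.19 ± 0.19 SE, limma adjusted p = 0.815).

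The subunits that bring phosphatase 1 to glycogen had lower means. Ppp1r3b, the main subunit of liver, was at 70.6, 51.3, 66.7 and 62.8 scaled TPM in the high-glycogen livers against 76.8, 66.8, 72.4 and 114, with M13 far above the rest. The log2 difference was -0.42 ± 0.17 (SE, limma adjusted p = 0.536), and was -0.91 within AllPrep, where M13 is the only low-glycogen liver, and -0.15 within RNeasy. Ppp1r3c was at 79.8, 42.9, 107 and 63.3 against 108, 119, 130 and 81.7 scaled TPM (log2 difference -0.51 ± 0.23 SE, limma adjusted p = 0.589), lower within each kit by a like amount of -0.48 and -0.53. Ppp1r3e, another such subunit, was lower within each kit as well (-0.38 ± 0.13 SE, limma adjusted p = 0.495). Ppp1r3g, a subunit whose level is known to change with feeding, varied too widely for any statement. It ran from 3.09 to 34.4 scaled TPM in the high-glycogen livers and from 4.72 to 41.4 in the low-glycogen livers. Ppp1cc, a catalytic subunit of phosphatase 1, was higher without overlap at 32.8, 33.0, 28.8 and 30.2 against 26.8, 27.1, 25.4 and 26.5 scaled TPM (log2 difference 0.21 ± 0.07 SE, limma adjusted p = 0.481). Pgm2, a phosphoglucomutase, did not overlap either, at 1.77 to 2.12 against 1.33 to 1.52 scaled TPM.

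Pygl, the liver glycogen phosphorylase that releases glucose units from glycogen, had the smallest p of the glycogen genes. It was at 351, 306, 226 and 237 scaled TPM in the high-glycogen livers and 293, 325, 329 and 443 in the low-glycogen livers. The groups overlapped across kits, through M1 and M10, while within each kit all high-glycogen livers lay below the low-glycogen livers. The log2 difference was -0.44 ± 0.08 (SE, limma adjusted p = 0.256), the same within AllPrep (-0.44) as within RNeasy (-0.45). Gaa, the lysosomal enzyme that digests glycogen, had a log2 difference of -0.25 ± 0.12 (SE, limma adjusted p = 0.614). Over the 12 tested genes of glycogen breakdown the median log2 difference was -0.002, with 6 positive and 6 negative, near the median of all genes.

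**Figure D2:**
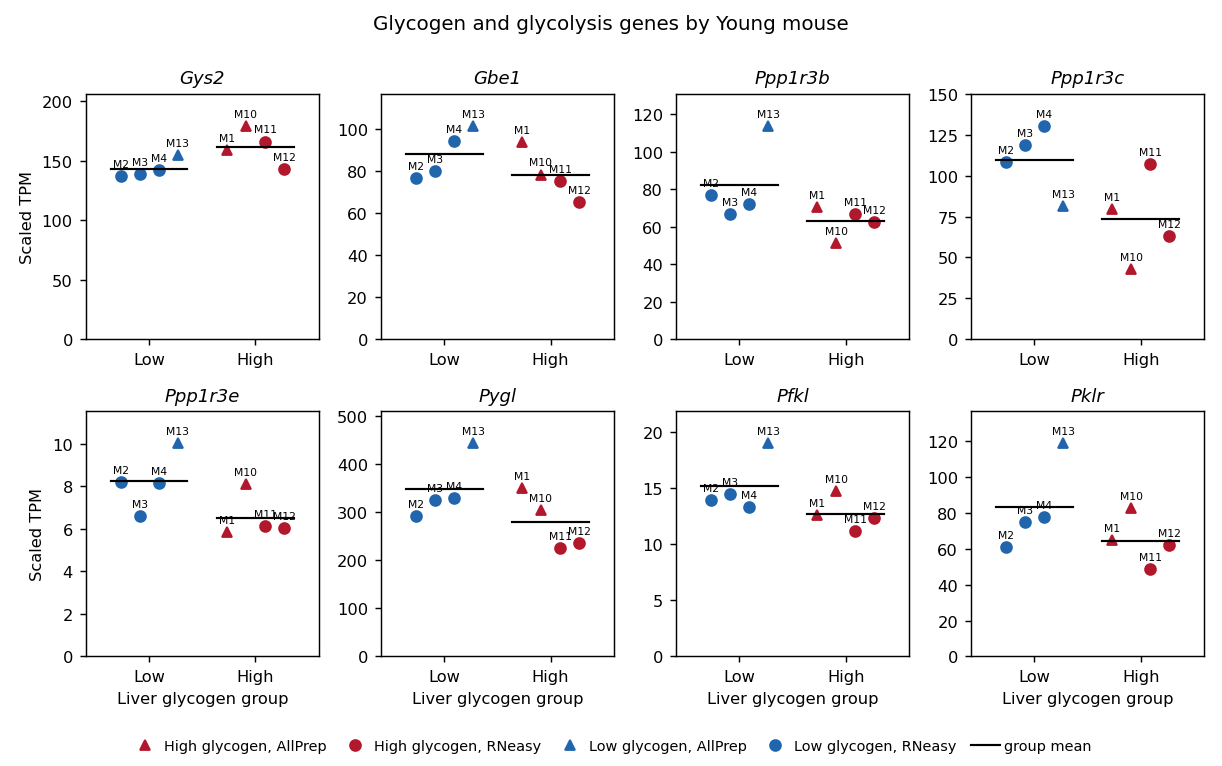
Scaled TPM of 8 glycogen and glycolysis genes in each young liver (1 symbol per mouse, triangles AllPrep, circles RNeasy, red high glycogen, blue low glycogen, black lines group means, axes from 0). Gys2 alone of these 8 has a higher mean in the high-glycogen group, and M13 is the highest low-glycogen liver in 7 panels and the lowest in Ppp1r3c.

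Some genes of glucose uptake and glycolysis had lower mean levels in the high-glycogen livers, and no member was called. Of 24 tested members of glucose uptake and glycolysis 7 were lower and 1 higher at an unadjusted p under 0.05, against 5.23% and 3.35% of all genes, and 20 of 24 differences were negative with a median of -0.13. Pklr, the pyruvate kinase of liver, was at 64.9, 82.6, 48.8 and 62.2 against 61.0, 75.1, 77.9 and 119 scaled TPM (log2 difference -0.48 ± 0.14 SE, limma adjusted p = 0.418). M13 was the highest of all 8 livers, and the groups overlapped within RNeasy through M12 and M2. Pfkl, the liver phosphofructokinase, differed by -0.32 ± 0.09 and Eno1, an enolase, by -0.27 ± 0.08 on the log2 scale (SE; limma adjusted p = 0.411 and 0.418), with no overlap within either kit. Ldha, lactate dehydrogenase A, was the member higher at that p, by 0.31 ± 0.11 on the log2 scale (SE, limma adjusted p = 0.513), and that difference came from RNeasy (0.47) and not from AllPrep (0.01). The count of 7 lower members was 1 with no kit term (8 of 24 differences positive) and 3 to 9 with each mouse left out. The summed level of the list was higher in the high-glycogen livers, 8505 to 10760 scaled TPM against 7777 to 10569, with means of 9552 and 8758.

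Transketolase (Tkt) and ketohexokinase (Khk), of the pentose phosphate pathway and of fructose use, belong with Pklr to the targets of the glucose-sensing factor ChREBP. They differed by -0.30 ± 0.08 and -0.33 ± 0.12 on the log2 scale (SE; limma adjusted p = 0.369 and 0.506). Of the 13 tested members of that list these 3 were lower at an unadjusted p under 0.05, 0 were higher, and 6 of the 13 differences were positive. Scd1, which introduces the double bond into stearate and palmitate and is among the strongest insulin- and carbohydrate-responsive genes of liver, was at 1904, 2161, 2579 and 2907 scaled TPM in the high-glycogen livers. In the low-glycogen livers it was at 5683, 4834, 8552 and 6582. The highest of the former lay well below the lowest of the latter, and the log2 difference was -1.36 ± 0.20 (SE, limma adjusted p = 0.254), with -1.70 within AllPrep and -1.17 within RNeasy. In the 10 old livers, whose glycogen was 19.2 to 28.4 label units, Scd1 ran from 2774 to 12465 with a median of 5805 scaled TPM.

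The other lipogenic genes did not separate in this way. Fasn, fatty acid synthase, was at 13.8, 30.4, 22.9 and 40.8 against 32.7, 36.3, 33.8 and 44.7 scaled TPM, with M12 inside the low-glycogen range (log2 difference -0.50 ± 0.30 SE, limma adjusted p = 0.711). Srebf1, the SREBP-1 gene that drives the pathway under insulin, overlapped at 12.0 to 22.5 against 17.3 to 22.3 scaled TPM. Of 18 tested lipogenic genes 2 were lower and 0 higher at an unadjusted p under 0.05 (Scd1 and the desaturase Fads1), while 16 of 18 differences were negative with a median of -0.28. That median was -0.15 without M1, -0.15 without M13 and -0.04 without the 3 mice nearest the threshold (M2, M11 and M13), where 7 of 18 were positive. The lower count was 7 without M12 and 3 without M1, M2, M4 or M10.

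Genes that insulin represses acutely did not separate the groups. G6pc, glucose-6-phosphatase, which releases free glucose, was at 980, 546, 775 and 542 scaled TPM against 890, 780, 1171 and 616 (log2 difference -0.25 ± 0.26 SE, limma adjusted p = 0.816). Pck1, phosphoenolpyruvate carboxykinase of gluconeogenesis, was at 5206, 6952, 5846 and 4980 against 5811, 4888, 5772 and 4763 scaled TPM (log2 difference 0.11 ± 0.15 SE, limma adjusted p = 0.867). Igfbp1, a secreted insulin-suppressed binding protein, spanned 156 to 608 scaled TPM in the high-glycogen and 156 to 607 in the low-glycogen livers. Irs2, the insulin receptor substrate that falls with insulin, differed by -0.18 ± 0.26 on the log2 scale (SE, limma adjusted p = 0.878), Pdk4, a kinase that blocks pyruvate dehydrogenase, by -0.08 ± 0.35 (0.962), and Txnip, a glucose-induced arrestin, by 0.21 ± 0.26 (0.857). The SEs of these 6 genes, 0.15 to 0.55 on the log2 scale, leave room for sizeable differences in either direction. Over 21 gluconeogenic genes 2 were lower and 0 higher at an unadjusted p under 0.05, and over 25 genes of insulin signalling 2 were lower and 1 higher.

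Several other genes, named for their small p, separated the groups as fully as Scd1. Over all genes tested, 1.71% were lower without overlap. Car3, a carbonic anhydrase abundant in liver and fat, was at 968, 1021, 373 and 891 scaled TPM in the high-glycogen livers and at 1464, 1984, 1867 and 3163 in the low-glycogen livers. All 4 high-glycogen livers lay below all 4 others, by a log2 difference of -1.63 ± 0.25 (SE, limma adjusted p = 0.254) that was nearly the same within AllPrep (-1.67) and RNeasy (-1.61). Gstt3, a theta-class glutathione transferase, was at 31.1, 31.9, 25.8 and 25.1 against 36.9, 49.6, 49.2 and 52.7 scaled TPM (log2 difference -0.78 ± 0.11 SE, limma adjusted p = 0.205). Zfp36l1, which binds AU-rich messages and promotes their decay, was at 129, 151, 134 and 122 against 195, 211, 228 and 208 scaled TPM (log2 difference -0.66 ± 0.09 SE, limma adjusted p = 0.205). Neither gene overlapped between groups.

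Syt3, a synaptotagmin of low level here, was at 2.15, 1.89, 1.07 and 1.06 against 2.58, 2.44, 2.38 and 3.18 scaled TPM (log2 difference -0.79 ± 0.11 SE, limma adjusted p = 0.205). Cyb5b, the cytochrome b5 of the outer mitochondrial membrane, was at 149, 168, 128 and 144 against 186, 184, 182 and 241 scaled TPM, again without overlap (log2 difference -0.50 ± 0.08 SE, limma adjusted p = 0.254). Mreg (log2 difference -0.47 ± 0.07) and Cyp4f14, a cytochrome that hydroxylates fatty acids and leukotrienes (-0.64 ± 0.10), were lower within each kit and overlapped across kits (SE; limma adjusted p = 0.254 for both).

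Xenobiotic metabolism had the largest share of genes at a small p among the pathway lists. Of 24 tested members 10 were lower and 1 higher at an unadjusted p under 0.05, against 5.23% and 3.35% of all genes, and the median log2 difference was -0.30. Gsta4, an alpha-class glutathione transferase that detoxifies lipid aldehydes, was at 122, 56.9, 56.5 and 48.3 scaled TPM against 102, 133, 109 and 121. M1 sat among the low-glycogen livers and the other 3 were about equal and lower (log2 difference -0.91 ± 0.24 SE, limma adjusted p = 0.387). Ces2a, a carboxylesterase, was at 334, 269, 251 and 168 against 291, 314, 337 and 382 scaled TPM (log2 difference -0.52 ± 0.14 SE, limma adjusted p = 0.410), again with M1 inside the low-glycogen range. Cyp2c29, a drug-metabolising cytochrome, differed within RNeasy (-0.67) more than within AllPrep (-0.08). The list had 13 lower and 2 higher members at that p without M1, 1 and 0 with all 18 libraries in the fit, and 2 and 0 with AllPrep alone.

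Of 20 tested bile acid genes 6 were lower and 0 higher at an unadjusted p under 0.05, a share of 30% against 5.23% of all genes. Akr1d1, the reductase that shapes the bile acid ring, was at 36.9, 34.2, 28.8 and 35.0 against 41.0, 51.2, 50.5 and 42.1 scaled TPM (log2 difference -0.45 ± 0.12 SE, limma adjusted p = 0.369). Abcc3, which exports conjugated bile acids into the blood, was at 187, 222, 230 and 153 against 238, 273, 271 and 301 scaled TPM (log2 difference -0.50 ± 0.14 SE, limma adjusted p = 0.391). Neither overlapped between the groups. Abcb11, the pump that secretes bile salts, was lower within each kit by -0.31 and -0.42 on the log2 scale. The median over the list was -0.05, close to that of all genes, while 16 of 20 differences were negative against 56.9% of all genes. Within AllPrep the median was -0.17 and within RNeasy -0.10. The lower count was 3 with no kit term and 0 with AllPrep alone.

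**Figure D3:**
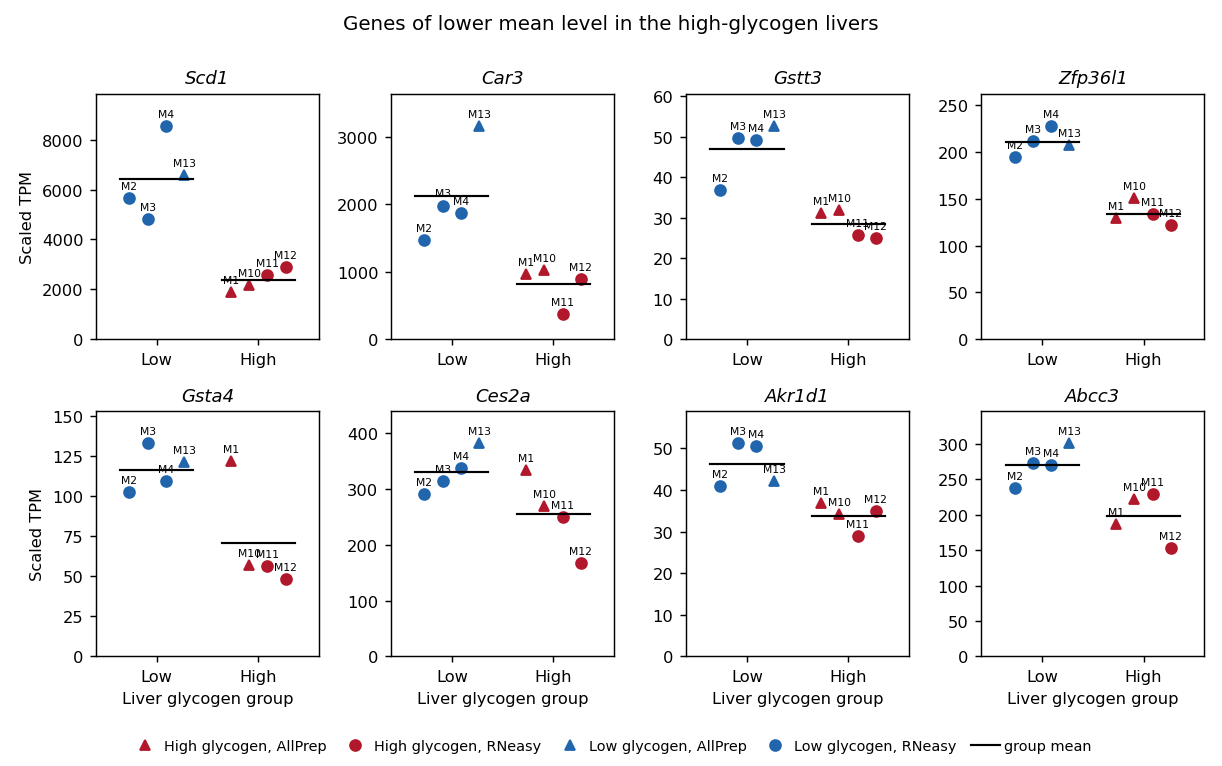
Scaled TPM of 8 genes with a lower mean in the high-glycogen livers (1 symbol per mouse, triangles AllPrep, circles RNeasy, red high glycogen, blue low glycogen, black lines group means, axes from 0). Scd1, Car3, Gstt3, Zfp36l1, Akr1d1 and Abcc3 show no overlap, whereas M1 lies within the low-glycogen range for Gsta4 and Ces2a.

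The acute phase proteins, which hepatocytes secrete when cytokines such as interleukin-6 signal inflammation, gave the widest differences in the other direction. They were very high in M10 and M12, intermediate in M11 and low in M1, so they did not follow the group as a whole. Saa1, a serum amyloid A, was at 35.9, 10426, 1264 and 5946 scaled TPM in the high-glycogen livers and at 38.3, 34.7, 38.1 and 175 in the low-glycogen livers. M1 lay with the low-glycogen mice, and M13 was the highest of the latter. The log2 difference was 4.63 ± 1.71 (SE, limma adjusted p = 0.513). Saa2 gave 13.1, 10562, 647 and 6236 against 12.2, 13.5, 21.0 and 75.7 scaled TPM, and since Saa1 and Saa2 are near-identical neighbours, reads could be split between them.

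Lcn2, an iron-scavenging lipocalin, was at 4.37, 1515, 78.1 and 604 scaled TPM against 4.86, 5.03, 5.07 and 20.5 (log2 difference 4.14 ± 1.69 SE, limma adjusted p = 0.551). Hp, haptoglobin, which binds free haemoglobin, was at 4587, 16672, 6460 and 11664 against 3409, 2876, 3111 and 5450 scaled TPM (log2 difference 1.19 ± 0.41 SE, limma adjusted p = 0.495). Apcs, serum amyloid P, was at 116, 526, 180 and 342 against 86.7, 65.8, 83.1 and 127 scaled TPM (log2 difference 1.41 ± 0.46 SE, limma adjusted p = 0.487). In all 3 genes M10 was highest, then M12, then M11, and M1 lay below M13, the AllPrep liver of the low-glycogen group. Saa3 was the only member that separated the groups without overlap, at 20.3, 187, 21.0 and 90.5 against 9.24, 11.5, 11.0 and 17.4 scaled TPM (log2 difference 1.93 ± 0.70 SE, limma adjusted p = 0.506).

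Of 23 tested acute phase genes 9 were higher and 0 lower at an unadjusted p under 0.05, against 3.35% and 5.23% of all genes, and 20 of 23 differences were positive with a median of 0.48. The count was 17 without M1, 0 without M12 or with AllPrep alone, and 3 without M2, M3 or M4. Summed over the list the level was 26160, 99780, 33608 and 59722 scaled TPM in the high-glycogen livers and 21410, 20690, 19846 and 31884 in the low-glycogen livers. Crp, C-reactive protein, which is hardly induced in mice, was at 306 to 433 against 289 to 373 scaled TPM. Such high levels were not limited to young mice: over the 10 old livers Saa1 ran from 24.7 to 5780 with a median of 274 scaled TPM, and Lcn2 from 5.06 to 1404 with a median of 157.

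Metallothioneins and asparagine synthetase shared this order of mice. Mt2, which binds zinc and copper and answers to metals, glucocorticoids and cytokines, was at 222, 1159, 382 and 762 scaled TPM against 123, 120, 113 and 261 (log2 difference 1.74 ± 0.52 SE, limma adjusted p = 0.435). Mt1 was at 155, 532, 202 and 346 against 84.8, 96.7, 100 and 167 scaled TPM (log2 difference 1.24 ± 0.38 SE, limma adjusted p = 0.457). Only M1 and M13 broke the separation, in both genes. Asns, which makes asparagine and is a marker of amino acid shortage, was at 3.04, 14.9, 7.72 and 14.4 scaled TPM against 1.32, 1.55, 2.07 and 1.41. Here M1 too lay above every low-glycogen liver, and the log2 difference of 2.23 ± 0.44 (SE, limma adjusted p = 0.273) was 1.95 within AllPrep and 2.38 within RNeasy. Asns was the only gene of the list of unfolded protein and integrated stress response to be higher at an unadjusted p under 0.05, with 1 of 24 tested lower and a list median of 0.03.

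**Figure D4:**
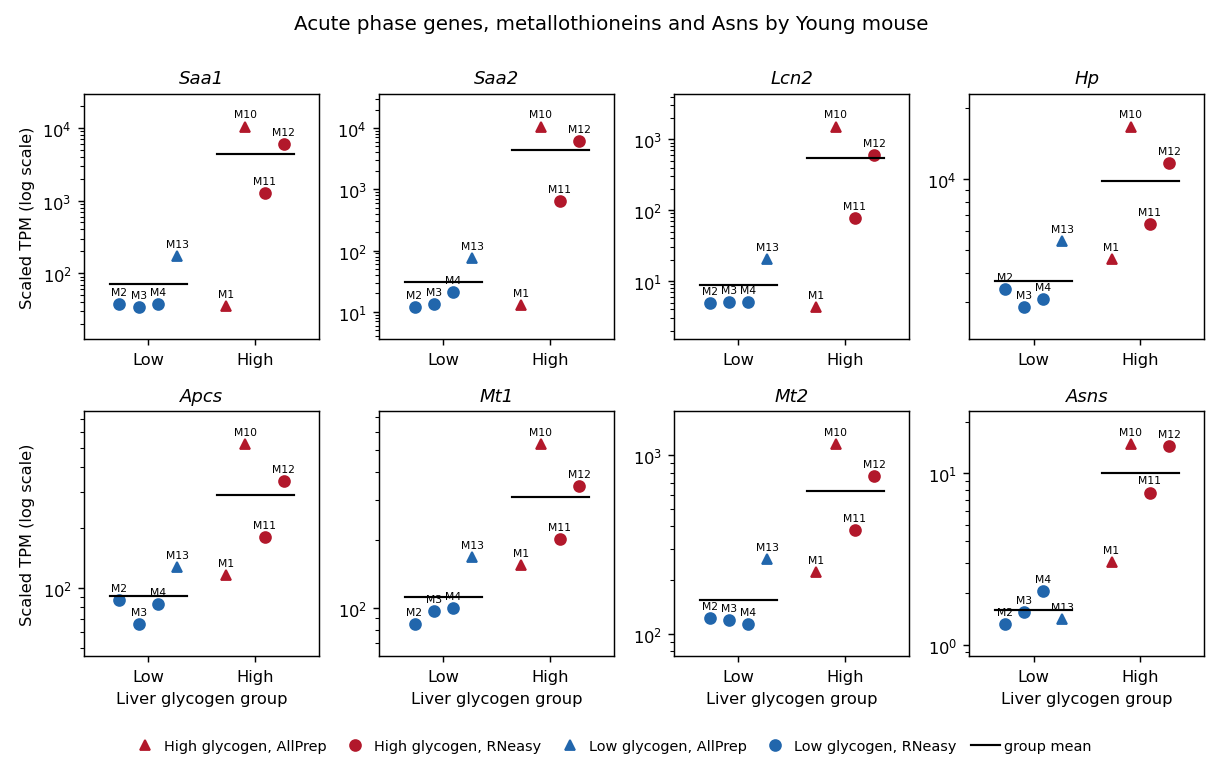
Scaled TPM on a log axis of 5 acute phase genes, 2 metallothioneins and Asns in each young liver (1 symbol per mouse, triangles AllPrep, circles RNeasy, red high glycogen, blue low glycogen, black lines arithmetic group means). M10, M12 and M11 lie above all low-glycogen livers in every panel, whereas M1 does so for Asns alone.

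Promoter windows are shown for genes of these 3 sets because their levels followed the same order of mice. They are RefSeq sequences of build GRCm38.p6, from 250 bases before to 50 bases after the gene start, on the strand of the gene, with letters searched on both strands. In Saa1 (chr7:46742931-46743230, minus strand) and Lcn2 (chr2:32387690-32387989, minus strand) the capitals mark TTGCNNAA, a core pattern of C/EBP factors, which activate many acute phase genes. In Mt2 (chr8:94172368-94172667, plus strand) and Mt1 (chr8:94178839-94179138, plus strand) they mark TGCGCNC or TGCACNC, the core of metal response elements. In Asns (chr6:7693160-7693459, minus strand) they mark TGATGNAA, the core of the amino acid response element.
Saa1: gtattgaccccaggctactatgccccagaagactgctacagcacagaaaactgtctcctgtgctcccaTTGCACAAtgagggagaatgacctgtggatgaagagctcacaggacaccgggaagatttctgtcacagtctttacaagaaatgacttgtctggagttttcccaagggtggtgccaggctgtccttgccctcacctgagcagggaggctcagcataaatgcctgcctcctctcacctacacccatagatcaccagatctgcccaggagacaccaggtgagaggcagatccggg
Lcn2: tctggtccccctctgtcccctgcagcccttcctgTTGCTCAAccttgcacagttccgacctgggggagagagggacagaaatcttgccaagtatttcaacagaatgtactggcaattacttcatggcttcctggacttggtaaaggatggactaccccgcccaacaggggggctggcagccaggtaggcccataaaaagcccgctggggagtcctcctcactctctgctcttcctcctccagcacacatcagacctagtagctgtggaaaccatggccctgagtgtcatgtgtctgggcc
Mt2: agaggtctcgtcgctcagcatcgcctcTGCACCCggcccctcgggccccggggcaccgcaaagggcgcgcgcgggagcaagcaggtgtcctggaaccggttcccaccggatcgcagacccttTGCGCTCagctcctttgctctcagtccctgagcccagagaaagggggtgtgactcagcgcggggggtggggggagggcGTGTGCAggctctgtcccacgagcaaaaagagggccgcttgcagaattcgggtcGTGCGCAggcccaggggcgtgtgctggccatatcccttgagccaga
Mt1: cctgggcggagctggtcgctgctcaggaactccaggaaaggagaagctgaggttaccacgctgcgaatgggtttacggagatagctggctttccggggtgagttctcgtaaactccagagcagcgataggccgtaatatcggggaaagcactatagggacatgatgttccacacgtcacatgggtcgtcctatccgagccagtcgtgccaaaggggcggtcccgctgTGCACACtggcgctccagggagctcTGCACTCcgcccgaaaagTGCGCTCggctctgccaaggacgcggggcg
Asns: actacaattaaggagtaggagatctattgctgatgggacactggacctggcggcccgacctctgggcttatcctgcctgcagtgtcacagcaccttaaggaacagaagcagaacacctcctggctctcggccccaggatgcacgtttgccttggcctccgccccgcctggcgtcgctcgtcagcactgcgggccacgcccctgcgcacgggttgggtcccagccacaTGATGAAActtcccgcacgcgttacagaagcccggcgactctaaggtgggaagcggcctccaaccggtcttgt

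TTGCNNAA occurred in 10.8% of all 32851 promoter windows of the table, and in 11 of the 20 acute phase genes with a window: Cp, Fga, Fgb, Hpx, Lcn2, Orm2, Saa1, Saa2, Saa3, Saa4 and Steap4. TTCNNNGAA, the pattern of STAT factors, was in 6 of the 20 and in 8.3% of all windows, and an NF-kB pattern of 10 letters in 1 of the 20 and in 0.807%. The metal response core was found 4 times in Mt2 and 3 times in Mt1, whereas 25.7% of all windows held it and 1.97% held 3 or more. TGATGNAA was found 1 time in Asns and in 3.97% of all windows. Matches of different patterns did not overlap in the 5 windows shown. A match is a string of letters and not a measured binding site.

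Among the 8 genes of smallest p with higher levels in the high-glycogen livers, Gpcpd1, which cleaves glycerophosphocholine, was at 86.0, 111, 92.2 and 111 scaled TPM against 55.1, 70.7, 62.6 and 50.3. All 4 high-glycogen livers lay above all 4 others, M1 included (log2 difference 0.78 ± 0.13 SE, limma adjusted p = 0.256). Cd302, a C-type lectin receptor, was at 477, 531, 389 and 415 against 322, 315, 312 and 358 scaled TPM (log2 difference 0.40 ± 0.07 SE, limma adjusted p = 0.256). Plpp5, a lipid phosphatase, Smyd1, a methyltransferase best known from muscle, and Mppe1, a phosphoesterase, also did not overlap, with log2 differences of 0.48 ± 0.09, 0.48 ± 0.08 and 0.47 ± 0.09 (SE; limma adjusted p = 0.256, 0.256 and 0.258). Meiob (0.48 ± 0.09) and the small nucleolar RNA Snord14c (1.09 ± 0.20) were higher within each kit and overlapped across kits (SE; limma adjusted p = 0.256 for both).

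Without M1, 25 genes were called higher (0.182% of 13748) and 29 lower (0.211%) by limma, and 847 (6.16%) and 1290 (9.38%) had an unadjusted p under 0.05. None of the 7 other fits with 1 mouse left out called any gene. The called genes were chosen by a fit that leaves out the mouse that stood apart, so they describe 3 high-glycogen livers. Among the higher were Saa1 (log2 difference 6.10 ± 0.47), Saa2 (7.04 ± 0.70), Lcn2 (5.57 ± 0.63), Apcs (1.78 ± 0.23) and Hp (1.51 ± 0.20), with limma adjusted p of 0.0249, 0.0249, 0.0341, 0.0445 and 0.0452 (SE, n = 3 and 4). Mt2 at 2.17 ± 0.21, Mt1 at 1.55 ± 0.18 and Asns at 2.57 ± 0.24 were called as well (SE; limma adjusted p = 0.0249, 0.0341 and 0.0249). Among the lower were Gsta4 (-1.11 ± 0.10), Zfp36l1 (-0.64 ± 0.08), Cyp4f14 (-0.67 ± 0.09) and Pygl (-0.47 ± 0.06), with limma adjusted p of 0.0249, 0.0446, 0.0445 and 0.0446 (SE, n = 3 and 4). Further called genes were the acute phase proteins Lrg1 (1.64 ± 0.15), Fgl1 (2.10 ± 0.15) and Itih4 (1.30 ± 0.15), and, among the lower, the glutathione transferases Gsta2 (-1.55 ± 0.21), Gsta3 (-0.80 ± 0.07) and Mgst3 (-0.90 ± 0.09) and the fatty acid receptor Cd36 (-0.61 ± 0.07) (log2 difference ± SE; limma adjusted p between 0.0249 and 0.0470). The largest falls among the called genes were those of Gm15564 (-2.40 ± 0.32), the mitochondrial ribosomal RNA mt-Rnr2 (-2.02 ± 0.27) and Lars2 (-1.95 ± 0.23). Their limma adjusted p values were 0.0452, 0.0452 and 0.0359 (log2 difference ± SE). Reads can be shared between the Gsta genes, which are close relatives, and between Mt1 and Mt2. Scd1 and Car3 were not called in that fit, at adjusted p = 0.0643 and 0.0766 by limma. Called genes that the naming rule did not pick were chosen after their values were seen.

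**Figure D5:**
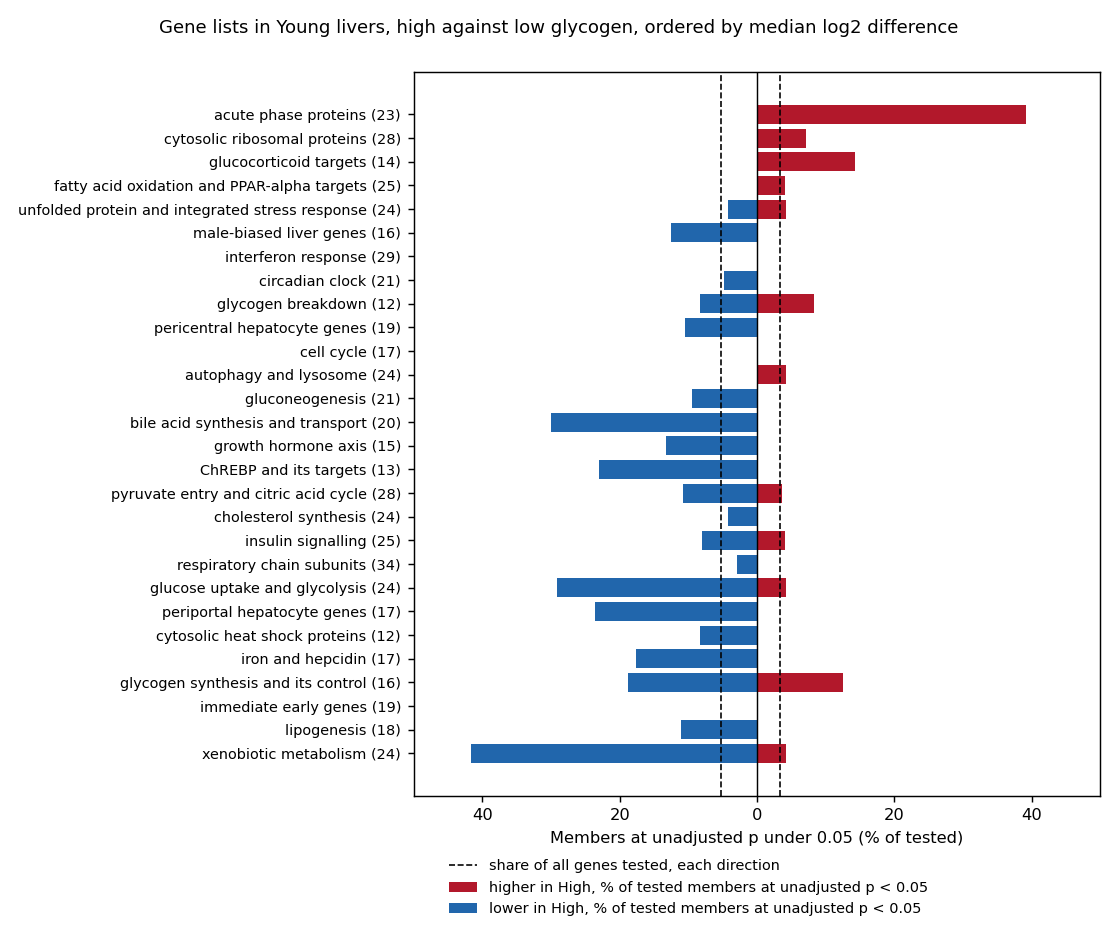
Share of the tested members of each pathway list with more than 1 tested gene (number tested in brackets) at an unadjusted limma p under 0.05, to the right for members higher and to the left for members lower in the high-glycogen livers, ordered by the list's median log2 difference. Dashed lines give the same share over all genes tested, 3.35% higher and 5.23% lower; acute phase proteins (9 of 23 higher) and xenobiotic metabolism (10 of 24 lower) extend farthest.

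Among the other lists, some stayed near the background, some moved by small amounts, and some held a larger share of lower members than the background. All 28 cytosolic ribosomal protein genes had a positive log2 difference with a median of 0.13, of which 2 had an unadjusted p under 0.05, and the median was 0.29 within AllPrep and 0.04 within RNeasy. Without the 3 mice nearest the threshold that median was -0.04, with 10 of 28 positive, so the direction of this list depends on which mice are compared. All 17 tested genes of iron and hepcidin had a negative difference with a median of -0.17. At an unadjusted p under 0.05, 3 were lower and 0 higher, a share of 17.65% against 5.23% of all genes. With no kit term 7 of these 17 were positive. The list includes Tmprss6, the protease that restrains hepcidin, at -0.35 ± 0.07 (SE, limma adjusted p = 0.256) and lower within each kit, whereas Hamp, hepcidin itself, differed by -0.06 ± 0.21 (SE, limma adjusted p = 0.952). Of 17 periportal genes 4 were lower and 0 higher at an unadjusted p under 0.05, a share of 23.5% against 5.23% of all genes. Their median was -0.15, with 14 of 17 differences negative. The lower members included Gldc of glycine breakdown and Gls2, liver glutaminase. Gls2 differed by -0.51 within RNeasy and by 0.02 within AllPrep. Smad7, an inhibitor of BMP signalling, was at 9.26, 6.82, 6.78 and 8.04 against 13.3, 9.02, 12.0 and 18.3 scaled TPM, overlapping only through M1 and M3 (log2 difference -0.78 ± 0.18 SE, limma adjusted p = 0.321). Ghr, the growth hormone receptor, was lower within each kit by -0.29 ± 0.08 (SE, limma adjusted p = 0.410).

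In the citric acid cycle Fh1, fumarase, was higher without overlap, at 394, 431, 398 and 385 against 328, 305, 313 and 340 scaled TPM (log2 difference 0.30 ± 0.07 SE, limma adjusted p = 0.328). Sdha, of succinate dehydrogenase, was lower within each kit (-0.29 ± 0.10 SE, limma adjusted p = 0.495). Of 34 respiratory chain genes 33 had a negative difference with a median of -0.09 (0.01 within AllPrep and -0.14 within RNeasy). Of these, 1 was lower at an unadjusted p under 0.05 with all mice and 22 were without M1. Interferon response, immediate early genes and cell cycle held 0 members at an unadjusted p under 0.05. Of 19 immediate early genes 17 had a negative difference, with a median of -0.275 (0.09 within AllPrep and -0.33 within RNeasy). That median was -1.02 without M2, M11 and M13, and -0.01 without M4.

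Markers of other cells and ribosomal RNA were also compared. Of 15 sinusoidal endothelial markers 4 were lower and 0 higher at an unadjusted p under 0.05, with a median of -0.18 (0.03 within AllPrep and -0.29 within RNeasy). Their summed level was 244 to 383 scaled TPM in the high-glycogen livers and 296 to 365 in the low-glycogen livers. Kupffer cell markers had 0 of 14 at that p and sums of 462 to 1005 against 534 to 822, and neutrophil markers summed to 7.92 to 19.1 against 4.84 to 31.6. Of 10 tested markers of monocytes and lipid-associated macrophages 2 were higher, Cd9 and Spp1, and the sums were 156 to 232 against 126 to 191 scaled TPM. Cholangiocyte markers summed to 27.3, 68.9, 57.1 and 49.1 scaled TPM in the high-glycogen livers against 31.3, 31.8, 31.2 and 33.1, high in the same 3 mice as the acute phase genes. Of 4 tested cholangiocyte markers 1 was higher at that p, Spp1, which stands in both lists and alone was at 19.6, 59.0, 44.6 and 37.2 against 22.1, 20.0, 19.6 and 22.1 scaled TPM. No marker that the table lists was at 0 in all 8 livers, but the table lists only 3 of 8 adipocyte, 2 of 9 pancreatic acinar and 2 of 8 skeletal muscle markers. In whole liver, fewer cells of a type and less RNA per cell cannot be told apart. The mitochondrial ribosomal RNA mt-Rnr2, a target of the ribosomal RNA depletion, was at 59.1, 21.6, 20.3 and 19.6 scaled TPM in the high-glycogen livers and 87.8, 49.0, 115 and 98.4 in the low-glycogen livers, and Lars2, a mitochondrial leucyl-tRNA synthetase, followed it at 42.7, 15.8, 12.9 and 20.4 against 61.5, 49.6, 90.6 and 60.3. Both were lowest in M10, M11 and M12, the mice with the highest acute phase levels, and both were chosen after their values were seen. Both were among the genes called lower without M1. The part of these markers in the differences above was not tested.

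With the glycogen value itself in place of the threshold, limma called 0 genes in the 8 young livers. The slope was positive at an unadjusted p under 0.05 for 212 genes (1.54%) and negative for 347 (2.52%). Tpm2, a tropomyosin, had the smallest p among negative slopes, -0.49 ± 0.06 on the log2 scale per 10 label units (SE, limma adjusted p = 0.562), and Gstt3 followed at -0.54 ± 0.08 (0.722). Scd1 had a slope of -0.74 ± 0.25 and Asns one of 1.25 ± 0.44 (SE; limma adjusted p = 0.990 for both). Nnmt, which methylates nicotinamide, was at 155, 173, 132 and 151 against 136, 106, 93.4 and 103 scaled TPM, with a slope of 0.35 ± 0.08, and Slc16a11, a monocarboxylate transporter, was at 3.04, 3.23, 3.54 and 3.12 against 3.87, 5.77, 4.36 and 5.36 with a slope of -0.39 ± 0.08 (SE; limma adjusted p = 0.990 for both). In Slc16a11 the groups did not overlap, and in Nnmt they met between M11 and M2. In the 10 old livers, which the grouping did not use, 0 genes were called by limma for a slope on glycogen and 194 (1.41%) had an unadjusted p under 0.05. Their slopes were 0.07 ± 0.63 for Scd1, 0.20 ± 0.59 for Gstt3 and 1.54 ± 0.96 for Asns (SE; limma adjusted p = 1.00 for each). Glycogen spanned 19.2 to 28.4 units in old and 23.2 to 50.6 in young mice, and the SEs of these slopes were larger in the old mice. In the test of the difference of slopes between ages limma called 0 genes, and 163 had an unadjusted p under 0.05.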

How the data were processed

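Libraries were ribosomal-RNA-depleted total RNA from whole liver, sequenced as paired ends per the labels. The deposited values are TPM for 18946 genes in 18 libraries, made by the authors, and the submitters' processing notes name STAR 2.7.9a, Subread and featureCounts and the builds GRCm39 and mm10. Which build was used for these values is not given in the sources used here. Dividing each value by its gene's step gave whole reads for 18946 of 18946 genes (tolerance 0.001), and depth comes from these reads. A composition factor per library, from log ratios after trimming (30% of ratios and 5% of levels at each end), rescaled the TPM, and genes reaching 0.5 TPM in 4 or more young libraries were kept. limma 3.58.1 in R 4.3.3 was fitted to log2(scaled TPM + 0.5) with the kit as a term and an intensity trend, so differences of low genes are understated. Adjusted p values are Benjamini-Hochberg over all 13748 genes, and a gene was called under 0.05. With limma-voom on the recovered reads 0 genes were called.

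Slopes are per 10 label units of glycogen. Traits were compared with exact two-sided permutation tests in SciPy 1.17.1. Named genes were 17 genes of glycogen and insulin action, the 8 of smallest p per direction with a regular symbol and a mean of at least 2 scaled TPM, 4 per direction of the slope, and 3 of smallest p from each of 12 lists. A few of these genes are not reported here. Other list members and genes are given where a result turned on them. Groups, genes and lists were chosen with earlier results of these data known. Alternatives were scaling, pseudocount, filter, weights, the kit and weight terms, kits alone, and each mouse left out. Counts of list members without M1 were added after the data had been seen. The analysis was tested on simulated data. Promoter windows come from RefSeq tables of GRCm38.p6, matched by symbol, and no coordinate of the deposited values was used. Of the columns of values, 0 had no sample. Each library is a separate mouse, no pair of young libraries came closer than a chi-square of 39.8 times its degrees of freedom, and p values measure the spread between mice.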

Additional observations from a re-analysis of the deposited data

Results flagged for a closer look

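In 9 of 176 groups of 4 values a single liver stood apart from the other 3 by more than 0.829 of the group's range, where chance alone gives about 1 in 20 such groups. In the low-glycogen group M13 was the highest for Cyp4f14 (116.5 scaled TPM), Cyb5b (240.9), Tmprss6 (351.3) and Mt2 (261.4), and the lowest for Txnip (52.21). M13 is the only low-glycogen liver extracted with AllPrep. In the same group M3 was the highest for Hamp2 at 6.511 scaled TPM, a second hepcidin gene.

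In the high-glycogen group M1 was the highest for Gsta4 (121.5 scaled TPM). M10 was the highest for Ppp1r3e (8.103) and Sdha (399.2).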

How the results depend on the processing

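The calls depended on M1. With 1 mouse left out, 0 to 25 genes were called higher and 0 to 29 lower, and every call came from leaving out M1. With clamp weight as a further term 1 gene was called higher, and with AllPrep alone, 2 mice against 1 and 1 residual degree of freedom, 4 were higher and 1 lower. The other settings called 0 genes, and the cause was not tested. Of 1512 values of 72 named genes under 21 alternatives, 1488 kept their sign. Most of these genes were picked for a small p in the same libraries that the alternatives refit, so kept signs are no independent support. With AllPrep alone the log2 difference was 0.34 for Ugp2, 1.10 for Ppp1r3g, 0.25 for G6pc, 0.23 for Irs2, 1.12 for Igfbp1 and 0.018 for Gls2. Without M2, M11 and M13 it was -0.093 for Pck1, -0.54 for Txnip, 0.14 for Srebf1, 0.22 for Fasn and 0.081 for Igfals. With RNeasy alone it was -0.021 for Pck1 and -0.18 for Txnip. With each mouse left out it ran from -0.48 to 0.041 for Ugp2, -1.61 to 0.17 for Ppp1r3g, -0.021 to 0.21 for Pck1, -0.18 to 0.52 for Txnip, -0.40 to 0.14 for Irs2, -0.73 to 0.56 for Igfbp1 and -0.29 to 0.14 for Pdk4. Genes at an unadjusted p under 0.05 numbered 1179, against 658 with no kit term and 563 with all 18 libraries. No paired analysis was possible because the high- and low-glycogen mice share no replicate number. Depth was at least 85790735 reads per library.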
